A study of Mus musculus with 19 samples.

Results

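Gene expression in the mouse tooth germ at E13.5 was compared with that of the whole embryonic body, using 3 tooth germ arrays and 3 whole body arrays, which were 6 of the 19 arrays of the series. The 6 arrays were chosen by their labels alone. All 6 came from wild type embryos of the ICR strain, staged with the plug day as E0.5, and none carried a mutation or a treatment. Tissue was dissected, kept in RNAlater and frozen before total RNA was extracted and labelled with biotin for Affymetrix arrays. The tooth germs were taken at E13.5, and the labels do not name the tooth type or the jaw. The whole body samples are labelled with the range E11.5 to E13.5 as the matched control, and the stage of each array within that range is not given. The other 13 arrays held lens from E10.5 to E12.5 and the whole body made for it. The labels do not say whether replicates came from separate litters or pools, so the spread between replicates may be technical. The p-values and SEs rest on the spread within groups over all 19 arrays, those of the lens series included, and not on these 6 alone.

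A tooth germ is a bud of oral epithelium that has grown into, and become wrapped by, a condensation of mesenchyme derived from the neural crest. The epithelium first sends signals of the WNT, BMP, FGF and hedgehog families to the mesenchyme. At the bud stage the mesenchyme answers with BMP4, activin and FGF signals that act back on the epithelium, under transcription factors such as MSX1, PAX9, BARX1 and the LIM homeodomain proteins LHX6 and LHX8. The whole body is a mixture of all embryonic tissues, the head included, so it also holds some tooth germ and much other ectoderm and mesenchyme. In a bulk comparison of this kind, fewer cells of a type and less RNA per cell cannot be told apart.

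The RNA quality controls differed between the tooth germ and the whole body arrays. Each array carries probe sets at the 3′ and the 5′ end of the Gapdh and Actb transcripts, and the 3′ minus 5′ difference grows as the labelled RNA becomes shorter. For Gapdh this difference was 3.01, 3.13 and 2.82 on the log2 scale in the tooth germ arrays and 3.84, 4.08 and 4.06 in the whole body arrays. For Actb it was 4.84, 5.05 and 4.78 in tooth germ and 4.22, 4.23 and 4.47 in whole body. The controls therefore differed in opposite directions: by -1.01 for Gapdh and by 0.58 for Actb, with no overlap between groups for either (exact two-sided permutation test, p = 0.1 for each, the smallest that 3 against 3 arrays can give). Their mean was 3.94 ± 0.15 in tooth germ and 4.15 ± 0.12 in whole body (SD, n = 3 each; exact permutation p = 0.2). In the 13 arrays of the lens series the same differences lay between -0.10 and 0.05 for Gapdh and between 0.21 and 0.48 for Actb, so the 6 arrays studied here stood apart from the rest of the series. The bacterial spike-in controls averaged 9.97 ± 0.19 in tooth germ and 8.06 ± 0.43 in whole body on the log2 scale (SD, n = 3 each). The part of RNA quality in the differences between groups cannot be told apart from the groups themselves with these arrays.

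**Figure D1:**
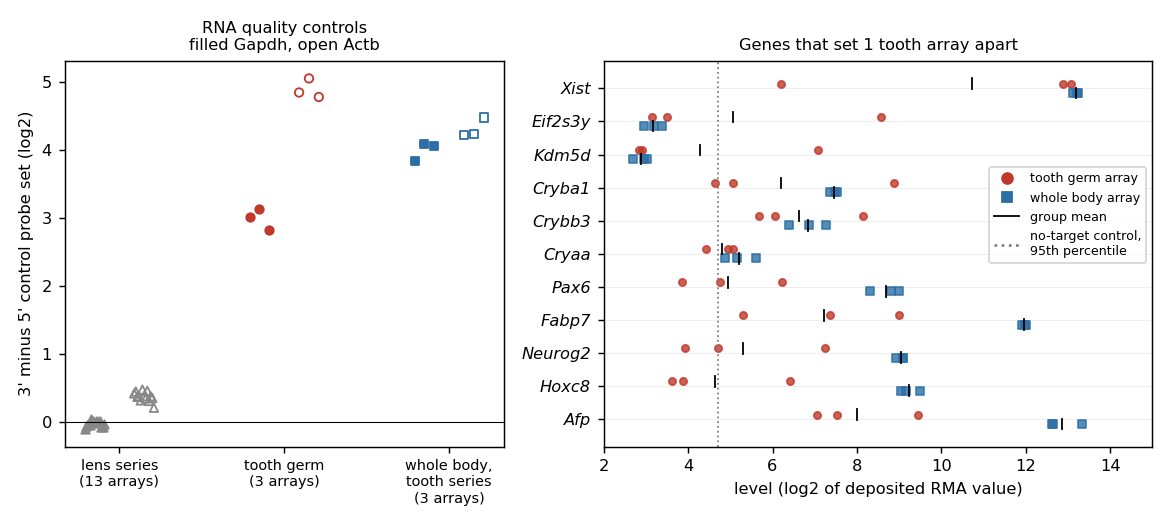
Left, the 3′ minus 5′ log2 difference of the Gapdh (filled) and Actb (open) control probe sets, 1 point per array. Tooth germ and whole body differ from each other, and both lie far above the 13 lens-series arrays, which stay at or below 0.48. Right, log2 levels of 11 genes on each tooth germ (circles) and whole body (squares) array, with group means as black bars and the 95th percentile of no-target controls as a dotted line. Xist, Eif2s3y, Kdm5d, Cryba1 and Crybb3 set 1 tooth germ array apart from the other 2, Pax6, Fabp7, Neurog2 and Hoxc8 are highest on another, and Afp on the remaining array.

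Replicates resembled each other closely. Over all probe sets, correlations were 0.985 to 0.986 among tooth germ arrays and 0.986 to 0.994 among whole body arrays, against 0.942 to 0.948 between the groups. Between the whole body arrays of the tooth series and those of the lens series they were only 0.874 to 0.905, which limits every comparison across the series. No pair of arrays was a copy of another: at most 1.20% of probe sets held identical values. Levels are log2 of the deposited values, on which a difference of 1 is a 2-fold change, and a level of 4.71, the 95th percentile of the control probe sets that have no target, serves as a guide to background. For each gene 1 probe set was used, the one of highest mean among those annotated to no other gene, and 13320 of 18193 genes passed the filter on low values.

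Most tested genes listed for epithelial keratins and adhesion, and some of those listed for dental mesenchyme, were higher in tooth germ than in whole body. Most tested genes listed for neurons, muscle, liver and erythroid cells were lower in tooth germ. Of the 13320 genes tested with limma, 2214 (16.6%) were higher in tooth germ and 3370 (25.3%) were lower at an adjusted p under 0.05, which is 41.9% in either direction. These shares are the background for the count of each gene list below. At least 2-fold differences were found for 523 genes (3.93%) that were higher and for 1386 genes (10.4%) that were lower. The 3 arrays of a group lay wholly on 1 side of the other 3 for 56.1% of genes. The median difference over all genes was -0.04 and the median size 0.40. The balance of the calls depended on the scaling: with each array centred on its median, 3285 genes were higher and 2724 lower, so the higher share of the calls was 54.67% against 39.65% as deposited, and the median difference moved to 0.12. With the mean of the Gapdh and Actb 3′ minus 5′ differences as a covariate, 1213 genes were higher and 2556 lower, and no call changed direction. The Gapdh and Actb differences went in opposite directions between the groups and partly cancel in this mean. Its slope also rests on the spread within groups, so this fit cannot show the part of RNA quality in the calls.

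**Figure D2:**
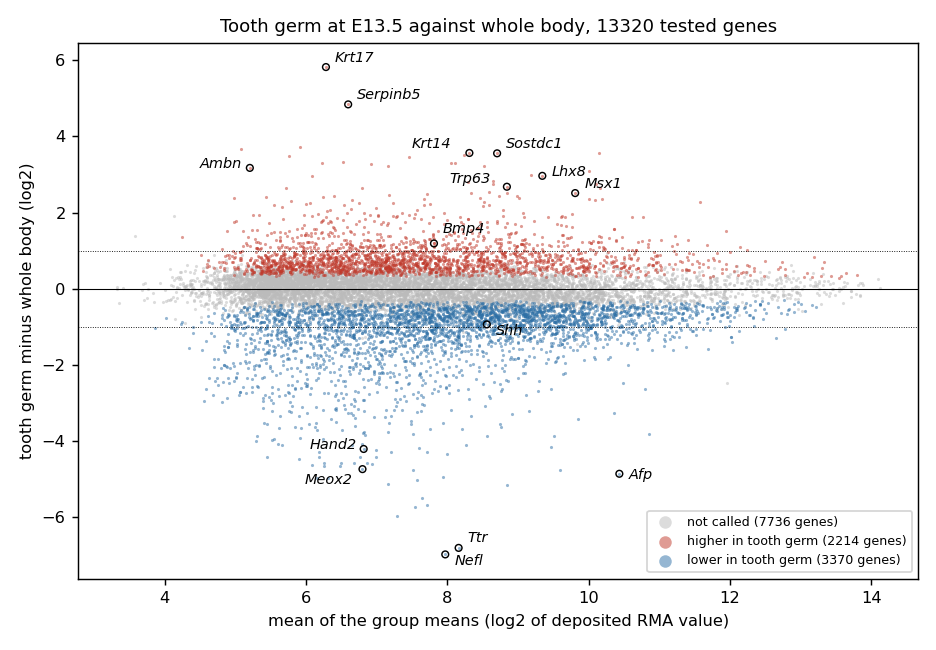
Each point is 1 of 13320 tested genes, placed by the mean of the tooth germ and whole body means (log2) and by the difference tooth germ minus whole body (log2). Dotted lines mark a 2-fold difference. The lower side reaches further, to -6.97 for Nefl, than the higher side, which reaches 5.82 for Krt17.

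The gene with the largest positive difference was Krt17 (chr11:100256215-100261029, GRCm38.p6), a keratin of epithelial appendages. Its levels were 8.98, 9.18 and 9.40 in the tooth germ arrays and 3.34, 3.32 and 3.46 in whole body, where it lay below the background guide. The groups were far apart, with a fitted difference of 5.82 ± 0.17 (SE) at an adjusted p of 2.473e-14. Where a group's mean lies below the guide, as here, the size of the difference has only a lower bound. With each whole body array raised to the guide, Krt17 was at least 22.4-fold higher. This holds for 6 of the 15 genes with the largest positive difference and for 6 of the 15 with the largest negative one, so the order among them is that of the fitted values. Serpinb5, the epithelial serpin also called maspin, followed with 8.21, 9.15 and 9.68 in tooth germ against 4.39, 3.94 and 4.21, a fitted difference of 4.84 ± 0.26, or at least 19.8-fold. Krt14, a keratin of basal epithelial cells, measured 9.84, 10.17 and 10.27 against 6.29, 6.66 and 6.63, a difference of 3.56 ± 0.22. For both genes the first tooth germ array was the lowest of its group but well above every whole body array. Other epithelial genes among the 15 largest differences were Eppk1, which encodes the keratin-binding epiplakin (3.45), Pof1b, an actin-binding protein of epithelial junctions (3.49), the membrane serine protease gene Tmprss11a (3.66), Serpinb1b (3.72) and Dapl1 (3.27).

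Regulators were among these 15 as well. Sostdc1, a secreted antagonist of BMP and WNT signals also known as ectodin, measured 10.48, 10.59 and 10.37 in tooth germ and 7.02, 6.93 and 6.83 in whole body. Its difference of 3.55 ± 0.18 was about as large as that of Krt14. Tbx1, a T-box factor of pharyngeal and dental epithelium, differed by 3.34 ± 0.23, with its lowest tooth germ array at 7.75 and its highest whole body array at 5.01. The others were Ifitm1, an interferon-inducible membrane protein (3.55), Acaa1b, a peroxisomal thiolase (3.50), and Urah, a hydrolase of urate breakdown (3.29).

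The remaining 2 of the 15 were long non-coding RNAs, each next to another transcript of interest. AI606473 measured 9.50, 9.66 and 9.95 in tooth germ against 6.65, 6.32 and 6.22, a difference of 3.31 ± 0.21. In the RefSeq annotation of GRCm38.p6 its start site at chr3 position 154330821 lies 261 bases from that of Lhx8 at 154330560, and the genes run in opposite directions. Of 535 such head-to-head pairs within 1000 bases whose genes were both tested, 1 had both genes at least 2-fold higher in tooth germ, namely this one. A further 6 pairs had both at least 2-fold lower and 1 pair had 1 gene on each side. Over all tested genes 3.93% were at least 2-fold higher and 10.4% at least 2-fold lower. The pair was met through AI606473, already picked for its large difference, so these counts are not a result about it. The 300 bases around the Lhx8 start (chr3:154330511-154330810, minus strand, RefSeq, GRCm38.p6), which fill most of the space between the start sites, are shown because both genes were higher; they hold none of the 6 motifs searched.
Lhx8: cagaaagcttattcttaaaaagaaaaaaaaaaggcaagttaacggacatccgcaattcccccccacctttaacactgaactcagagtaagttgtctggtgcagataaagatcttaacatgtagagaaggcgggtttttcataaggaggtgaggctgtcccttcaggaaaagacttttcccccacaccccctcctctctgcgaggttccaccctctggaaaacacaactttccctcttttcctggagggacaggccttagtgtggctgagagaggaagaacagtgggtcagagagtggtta

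Mir205hg, the other non-coding gene, spans chr1:193506460-193510210. It measured 7.70, 7.97 and 7.95 in tooth germ and 4.69, 4.56 and 4.45 in whole body, where it was below the background guide, a fitted difference of 3.31 ± 0.15, or at least 8.98-fold. The gene is the host of the microRNA miR-205, which is abundant in basal epithelium and whose hairpin lies at chr1:193507463-193507530. The arrays measured the host transcript and gave no value for the microRNA. Its mature products are shown with the seed, bases 2 to 8, in capitals; the arms have different seeds.
mmu-miR-205-5p: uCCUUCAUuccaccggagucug
mmu-miR-205-3p: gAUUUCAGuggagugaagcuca

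The 15 largest negative differences were mostly those of genes known from neurons, muscle and liver. Nefl, the light neurofilament chain of neurons, measured 3.96, 5.45 and 4.04 in tooth germ and 11.55, 11.44 and 11.37 in whole body, a fitted difference of -6.97 ± 0.25. With the tooth germ arrays below the guide raised to it, Nefl was at least 90.6-fold lower in tooth germ. Ttr, the transthyretin gene of liver and choroid plexus, measured 4.66, 4.71 and 4.91 against 11.52, 11.52 and 11.63, a difference of -6.80 ± 0.20. In tooth germ both genes sat near background. Others were the neurofilament gene Nefm (-5.96) and the neuronal gene Rufy3 (-5.12), the muscle genes Myh3 (-5.72), Actc1 (-5.02), Myom2 (-4.97), Myh6 (-4.96) and Synpo2l (-4.75), the liver genes Alb (-5.68) and Afp (-4.85), the erythroid gene Hemgn (-5.48), the nuclear receptor gene Nr2f1 (-5.15) and the neural genes Zic1 (-4.93) and Fabp7 (-4.74).

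**Figure D3:**
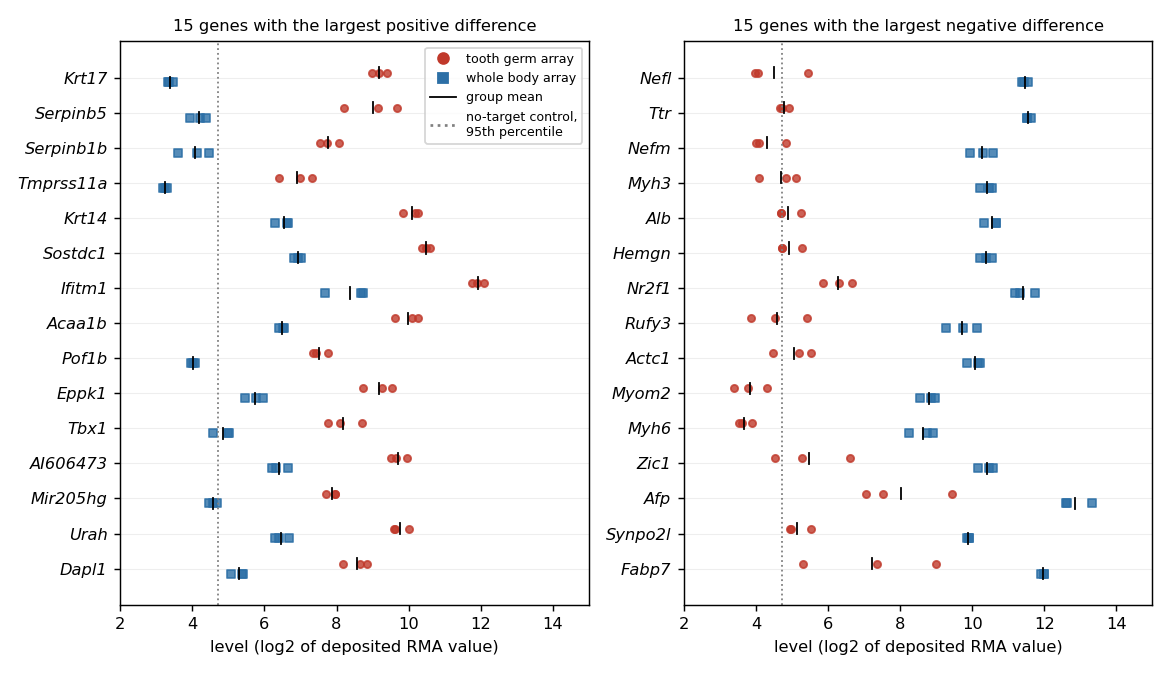
Log2 levels on each of the 3 tooth germ arrays (circles) and 3 whole body arrays (squares) for the 15 genes with the largest difference in each direction; black bars are group means and the dotted line is the background guide of 4.71. In the left panel tooth germ lies to the right of whole body for every gene, and in the right panel to the left; Afp and Fabp7 show the widest spread among tooth germ arrays.

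Most tested genes of a general list of epithelial keratins and adhesion were higher in tooth germ. Of 29 listed genes of epithelial keratins and adhesion, 25 were tested; 17 were higher, 1 was lower and 7 were not called, with a median difference of 1.16 against -0.04 for all genes. Krt5, the basal partner of Krt14, measured 10.28, 10.76 and 10.99 in tooth germ against 7.81, 7.86 and 7.40, a difference of 2.98 ± 0.28. The desmosome genes Dsg2 and Pkp1 were higher by 2.64 and 2.54, and Col17a1, a hemidesmosome collagen, by 2.65. Cdh1, the E-cadherin gene, measured 8.50, 9.05 and 9.12 against 7.15, 7.08 and 7.04, a difference of 1.80 ± 0.18. Krt8, a keratin of simple epithelium, overlapped between groups with a difference of 0.35 ± 0.22 (adjusted p = 0.2107), which with each array centred on its median was 0.51 (adjusted p = 0.0488), and Cldn7, a tight junction claudin of simple epithelia, was the member that was lower, by -1.54. The mean level over the list was 8.14 to 8.44 on the tooth germ arrays and 6.77 to 6.91 on the whole body arrays, and the lowest of the 3 tooth germ arrays was the first.

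The list of dental epithelium transcription factors was divided. Of 18 tested members of 23, 10 were higher and 5 were lower, with a median of 0.71. Trp63, the p63 gene that maintains stratified epithelium, measured 9.83, 10.30 and 10.41 in tooth germ and 7.53, 7.45 and 7.53 in whole body, a difference of 2.68 ± 0.19, and its second probe set gave 3.12. Pitx1, a homeobox gene of oral and hindlimb territories, measured 6.93, 6.83 and 7.03 against 5.04, 4.73 and 5.22, a difference of 1.93 ± 0.26. Lower members included Sox2, a neural progenitor and dental stem cell factor (-2.40), and Isl1, a factor of motor neurons and incisor epithelium (-2.77). The others of the 5 were Sp8, a factor of limb and brain (-3.19), Sox21 (-0.71) and Gata3 (-0.70). Sp8 was below the background guide on all 3 tooth germ arrays, at 3.75, 4.13 and 3.86. Grhl2, an epithelial grainyhead factor, was not called at its main probe set (0.24 ± 0.18); with only probe sets whose names carry no suffix the difference was 1.32 at an adjusted p of 2.72e-06.

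Epithelial signalling genes were mixed. Of 18 tested members of 22, 7 were higher, 2 were lower and 9 were not called, with a median of 0.33. After Sostdc1, the largest difference was that of Edaradd, the adaptor of the ectodysplasin receptor, with 9.79, 9.52 and 9.47 in tooth germ against 7.24, 7.15 and 6.82 and a difference of 2.52 ± 0.26. The WNT ligand genes Wnt6, Wnt4 and Wnt10a were higher by 1.59, 0.95 and 0.91, while Wnt10b differed by 0.25 ± 0.21 and was not called. With the 3′ minus 5′ covariate Wnt4 differed by 0.65 and lost its call (adjusted p = 0.0941). Shh, the hedgehog ligand of the dental epithelium, which is also strong in notochord, floor plate and limb, measured 8.94, 7.63 and 7.70 in tooth germ and 9.03, 9.17 and 8.87 in whole body. The first tooth germ array reached the level of the whole body and the other 2 did not; the difference was -0.94 ± 0.38 (adjusted p = 0.05296), and without that array it was -1.36 (adjusted p = 0.00798). Bmp2 was lower by -1.36 ± 0.18, Fgf9 differed by 0.04 ± 0.22, and Fst, the activin antagonist follistatin, by 0.59 ± 0.27 (not called), with 1.44 at its other probe set. Fst was called with the arrays centred (0.75, adjusted p = 0.0235) and with the 6 arrays fitted alone (adjusted p = 0.00374), as was Shh in that fit (adjusted p = 0.0302). Edar, the ectodysplasin receptor gene, did not pass the filter, with mean levels of 4.67 in tooth germ and 4.07 in whole body, both below the background guide.

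**Figure D4:**
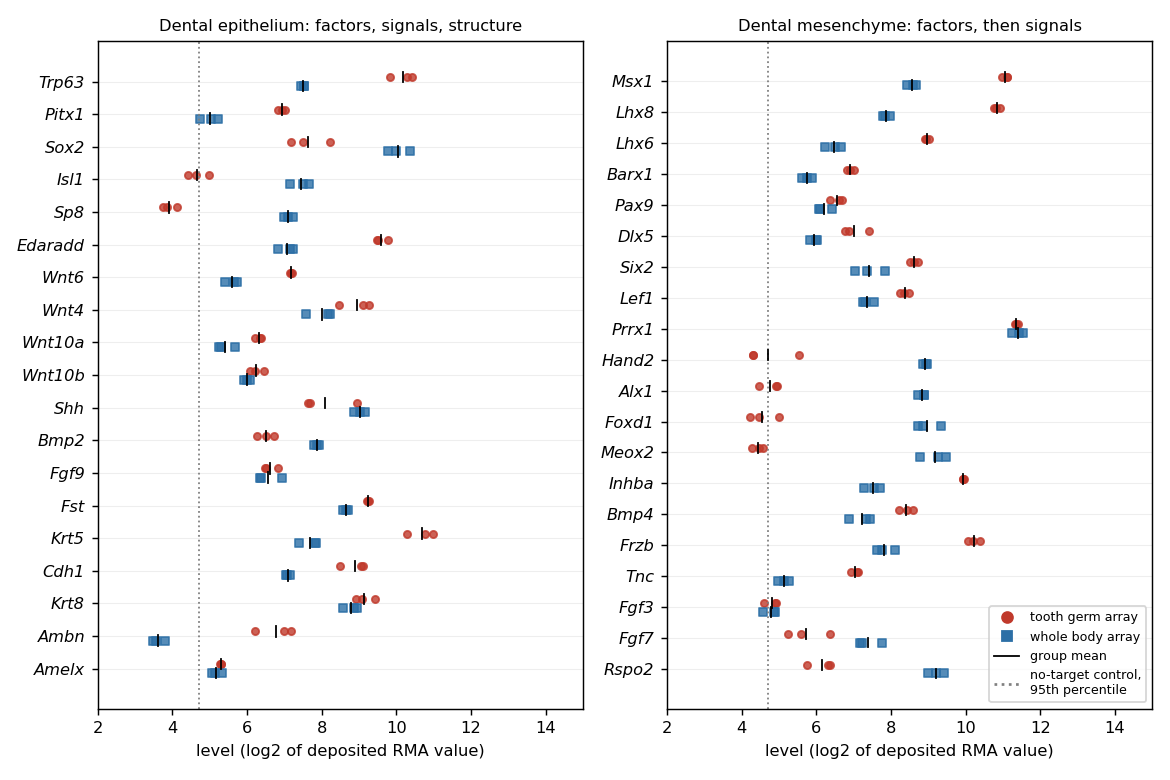
Log2 levels on each tooth germ (circles) and whole body (squares) array for named genes of the dental epithelium (left) and dental mesenchyme (right), with group means as black bars and the background guide of 4.71 as a dotted line. Msx1, Lhx8, Lhx6, Inhba and Frzb separate the groups with tooth germ higher; Hand2, Alx1, Foxd1 and Meox2 separate them with tooth germ near background.

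The transcription factors of the dental mesenchyme included genes far above and far below the whole body. Of 26 tested members of 35, 13 were higher, 6 were lower and 7 were not called, with a median of 0.27. The mean level over the list was 7.56 to 7.64 on the tooth germ arrays and 7.67 to 7.72 on the whole body arrays. The list as a whole was thus not higher in tooth germ by its mean level. Lhx8 measured 10.75, 10.91 and 10.82 in tooth germ and 7.96, 7.78 and 7.85 in whole body, a difference of 2.96 ± 0.21 or 7.79-fold. Msx1 (chr5:37820491-37824585), whose loss arrests teeth at the bud stage, measured 11.11, 11.10 and 10.97 against 8.66, 8.58 and 8.42, a difference of 2.51 ± 0.28. Lhx6 (chr2:36081950-36105992), the partner of Lhx8 in oral mesenchyme, measured 8.94, 9.0 and 8.92 against 6.51, 6.65 and 6.23, a difference of 2.49 ± 0.19. These genes varied little among the tooth germ arrays, with SDs of 0.08, 0.08 and 0.05. Barx1, a marker of molar mesenchyme, measured 6.89, 7.0 and 6.83 against 5.74, 5.62 and 5.89, a difference of 1.15 ± 0.29. Six2, Dlx5 and Lef1 were higher by 1.19, 1.08 and 1.00.

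Pax9, a paired-box factor needed for the tooth bud, gave different answers at its probe sets. At the probe set with the higher mean over the series it measured 6.61, 6.68 and 6.38 against 6.08, 6.11 and 6.42, so that the groups overlapped, with a difference of 0.35 ± 0.14 (adjusted p = 0.04456). At the other probe set it averaged 8.27 in tooth germ and 5.71 in whole body, a difference of 2.56 ± 0.20. The call at the first probe set was lost without tooth germ replicate 1 (0.33), tooth germ replicate 2 (0.29), whole body replicate 1 (0.29) or whole body replicate 2 (0.31). It was also lost with the 6 arrays fitted alone (adjusted p = 0.0837) and with a trended, robust variance (adjusted p = 0.0655), where the difference stayed 0.35. Prrx1, a factor of limb and face mesenchyme, did not differ detectably at its main probe set (-0.04 ± 0.23), and 2 of its other probe sets were called in opposite directions (0.96 and -0.99).

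Of the 6 lower members of this list, 4 had tooth germ means near the background guide. Hand2, a factor of the lower midline of the jaw, the heart and the limb, measured 4.29, 5.55 and 4.30 in tooth germ and 8.95, 8.95 and 8.85 in whole body, a difference of -4.20 ± 0.23. Foxd1 (-4.41), Alx1 (-4.06) and Meox2 (-4.73), factors of kidney, frontonasal and somite mesenchyme among other sites, had tooth germ means of 4.55, 4.77 and 4.43. The other lower members, Shox2, a factor of limb and palate, and Tbx3, a T-box factor, were well above the guide, with tooth germ means of 8.12 and 6.27 and differences of -1.16 and -1.14. Of 11 tested members of 16 jaw position genes, 7 were higher and 3 were lower, with a median of 1.08. Msx1, Barx1, Pitx1 and Dlx5 were on the higher side, and Hand2 and Isl1 on the lower. Their list mean was 7.14 to 7.27 on the tooth germ arrays and 7.11 to 7.24 on the whole body arrays, so the ranges overlapped. No Hox gene was higher: of 25 tested Hox genes, 17 were lower and 8 were not called, with a median of -1.66, and 13 of the 25 had a tooth germ mean below the background guide. Hoxd13 and Hoxb5 were lower by -4.41 and -4.56.

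The promoters of Msx1 and Ambn, the latter an enamel gene described further on, are shown because these are a mesenchymal and an epithelial gene with large positive differences. Each runs from 250 bases before to 50 bases after the start site in RefSeq (GRCm38.p6), with matches to any of 6 motifs in capitals: TAATCC and TAATTA of homeodomain proteins, CTTTGA of LEF1/TCF, TGACTCA of AP-1, GGGGCGG of SP proteins and TATAAA, searched on both strands. In Msx1 (chr5:37824536-37824835, minus strand) the capitals are GGGGCGG on the opposite strand, beginning at base -72. In Ambn (chr5:88455741-88456040, plus strand) they are CTTTGA on the opposite strand at -228 and on the gene's strand at -52.
Msx1: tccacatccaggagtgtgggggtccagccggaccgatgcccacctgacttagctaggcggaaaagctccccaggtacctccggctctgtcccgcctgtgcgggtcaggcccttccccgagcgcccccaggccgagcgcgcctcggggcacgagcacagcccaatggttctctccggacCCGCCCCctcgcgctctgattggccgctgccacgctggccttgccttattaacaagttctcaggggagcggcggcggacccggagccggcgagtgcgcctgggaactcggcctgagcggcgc
Ambn: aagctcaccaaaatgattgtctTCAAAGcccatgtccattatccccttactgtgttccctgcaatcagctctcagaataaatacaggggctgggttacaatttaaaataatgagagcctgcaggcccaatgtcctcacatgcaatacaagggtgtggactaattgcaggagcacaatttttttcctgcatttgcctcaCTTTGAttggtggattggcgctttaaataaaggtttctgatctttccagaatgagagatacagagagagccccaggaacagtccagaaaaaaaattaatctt

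Such matches are common. Over 27025 promoters of the same length, CTTTGA was present in 16.2%, GGGGCGG in 23.4%, TATAAA in 14.2%, TAATCC in 7.16%, TAATTA in 5.31% and TGACTCA in 5.17%. Among the 10694 of them that belong to tested genes the shares were 11.99%, 43.0%, 7.57%, 5.24%, 2.46% and 3.43% in the same order. Of the 15 genes with the largest positive difference, 12 had a promoter in the table. Among these 12, 4 held GGGGCGG, 3 held CTTTGA, 2 held TAATCC, 1 held TAATTA, 1 held TATAAA and 0 held TGACTCA.

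Signals of the dental mesenchyme were led by Inhba, which encodes the activin subunit that the mesenchyme of the bud sends to the epithelium. Inhba (chr13:16004256-16031609) measured 9.96, 9.94 and 9.91 in tooth germ and 7.71, 7.55 and 7.28 in whole body, a difference of 2.42 ± 0.13 or 5.37-fold, and its tooth germ arrays lay within 0.05 of each other. Bmp4, the BMP ligand that MSX1 maintains in this tissue, measured 8.58, 8.42 and 8.20 against 7.42, 7.34 and 6.88, a difference of 1.19 ± 0.21. Frzb and Dkk3, secreted proteins related to WNT antagonists, were higher by 2.39 and 1.66, and Tnc, the matrix protein tenascin C, by 1.92. On the lower side were Rspo2, a secreted amplifier of WNT signals (-3.06), Gas1, a hedgehog coreceptor (-1.83), and Fgf7 (-1.66). Eda, the ectodysplasin ligand gene, measured 6.50, 6.53 and 6.27 against 6.25, 6.27 and 5.64 and was not called (0.38 ± 0.16). Eda was called higher with the arrays centred (0.54, adjusted p = 0.0132), under quantile normalization (0.52, adjusted p = 0.018) and without whole body replicate 1 (0.48, adjusted p = 0.0474) or 2 (0.49, adjusted p = 0.0381). Fgf3 differed by 0.03 ± 0.29 near background, and Fgf10 did not pass the filter, with means of 4.46 and 4.61. In all, 7 of 24 tested mesenchymal signals were higher, 5 were lower and 12 were not called, with a median of 0.10.

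The choice of control mattered for several of these genes and of those described further on. The 4 whole body arrays of the lens series had the better RNA quality values given above. They are labelled with the range E10.5 to E12.5, younger than the tooth germ at E13.5, and belong to the other series. Against them, in the same limma model, Pitx1 (-0.99, adjusted p = 0.00158) and Tnc (-0.71, adjusted p = 0.0154) were called lower. Not called were Bmp4 (-0.14, adjusted p = 0.554), Barx1 (-0.60, adjusted p = 0.0623) and Pax9 (-0.044, adjusted p = 0.777). Nor were Fgf7 (0.18, adjusted p = 0.53) and Bmp2 (0.29, adjusted p = 0.141), both lower against the tooth-series body. Called genes that lost their call against these arrays were Dlx5 (0.036, adjusted p = 0.876), Lef1 (0.42, adjusted p = 0.0512), Fgfr2 (0.20), the matrix gene Fbn2 (0.52, adjusted p = 0.219), Alpl (0.39), Acvr1b (0.15), Egr1 (-0.14), Hhip (-0.36), Cdon (-0.43) and Slit2 (-0.36). With both whole body groups as control Barx1 (0.28), Pax9 (0.15), Pitx1 (0.47) and Axin2 (-0.30) were not called. Against the lens-series whole body Lhx8 remained higher by 4.17, Inhba by 3.55, Lhx6 by 2.95, Trp63 by 3.79, Krt14 by 2.17 and Msx1 by 1.99. The parts of RNA quality, stage and series in these changes were not tested and cannot be told apart.

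Among pathways, hedgehog genes leaned upward. Of 18 tested members of 21, 9 were higher and 3 lower, with a median of 0.26. Over all genes 16.6% were higher and 25.3% lower. Gli1, a direct target whose level follows hedgehog signalling, measured 8.74, 7.99 and 7.89 in tooth germ and 6.52, 6.31 and 6.18 in whole body, a difference of 1.87 ± 0.28. The first tooth germ array was the highest for Gli1, as it was for Shh. Ptch1, the receptor and also a target, which is named here after its values were seen, was higher by 0.72 ± 0.21. Evc, a cilium protein that passes the signal on, was higher by 1.44. Hhip, a secreted binder of the ligand, and the coreceptor genes Gas1 and Cdon were lower by -1.21, -1.83 and -1.26, and Gli2 differed by 0.12 ± 0.18. Gli1 and Ptch1 thus moved against Hhip, and the activity of the pathway was not tested.

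WNT genes went both ways, with 18 of 57 tested members higher, 11 lower and 28 not called, and a median of 0.17. Lef1, a nuclear mediator needed for the bud, was higher by 1.00 ± 0.20, whereas Tcf7l2, another of these mediators, was lower by -1.47, a call that was lost when all its probe sets were averaged (-0.11). Kremen1, a DKK receptor, was higher by 1.17. Axin2, the general feedback target of WNT signalling, measured 8.08, 8.51 and 8.46 in tooth germ against 9.12, 9.40 and 8.59, a difference of -0.68 ± 0.21 (adjusted p = 0.01391). That call was lost without tooth germ replicate 1 (adjusted p = 0.0749), without whole body replicate 2 (0.0892) and under quantile normalization (0.0624), and it was 0.080 against the lens-series whole body. Ctnnb1, the beta-catenin gene, differed by 0.07 ± 0.13. Dkk1, a WNT antagonist, was not called at its main probe set (-0.40 ± 0.21; without tooth germ replicate 1 -0.67, adjusted p = 0.0116) and was -2.03 at the other.

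FGF and Notch genes were mixed, as were all genes, of which 16.6% were higher and 25.3% lower. Of 25 tested FGF pathway members 5 were higher and 8 lower, with a median of -0.15. Fgfr2 (0.72), a receptor gene needed in the bud epithelium, and Flrt3 (0.95), a membrane partner of FGF receptors, were higher, while the feedback gene Spry2 (-1.05) and the target gene Etv5 (-1.21) were lower. The call of Etv5 was lost without tooth germ replicate 2 (-0.74) and with all its probe sets averaged (-0.24). That of Fgfr2 was lost with only probe sets whose names carry no suffix (0.19, adjusted p = 0.428) and with the 3′ minus 5′ covariate, where the difference was 0.67 (adjusted p = 0.0778). Of 20 tested Notch pathway members 3 were higher and 7 lower, with a median of -0.35. Jag1, a ligand, measured 9.47, 9.88 and 9.73 against 8.21, 7.74 and 8.0 and was higher by 1.71 ± 0.16, and Rfng, which modifies Notch, was higher by 0.98. Hes5, a target in neural progenitors, was lower by -4.14, Dll1, a ligand of neural tube and somites, by -2.13, and Hey2 by -2.02, with Notch1 at -0.24 ± 0.19.

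The BMP and activin pathways were mixed, as were all genes, of which 16.6% were higher and 25.3% lower. Of 27 tested BMP members 6 were higher and 6 lower, with a median of 0.07, the lower ones led by Bmp5 (-3.52) and the receptor gene Bmpr1b (-2.93), both strong in cartilage condensations. Of 24 tested activin and TGF-beta members 6 were higher and 4 lower, with a median of 0.17. Inha, which encodes the inhibin subunit, was higher by 1.89 and the receptor gene Acvr1b by 0.92, whereas the TGF-beta-induced gene Tgfbi was lower by -1.79. Of 12 tested ectodysplasin and NF-kB genes 4 were higher and 2 lower, with a median of 0.39, which Edaradd led.

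**Figure D5:**
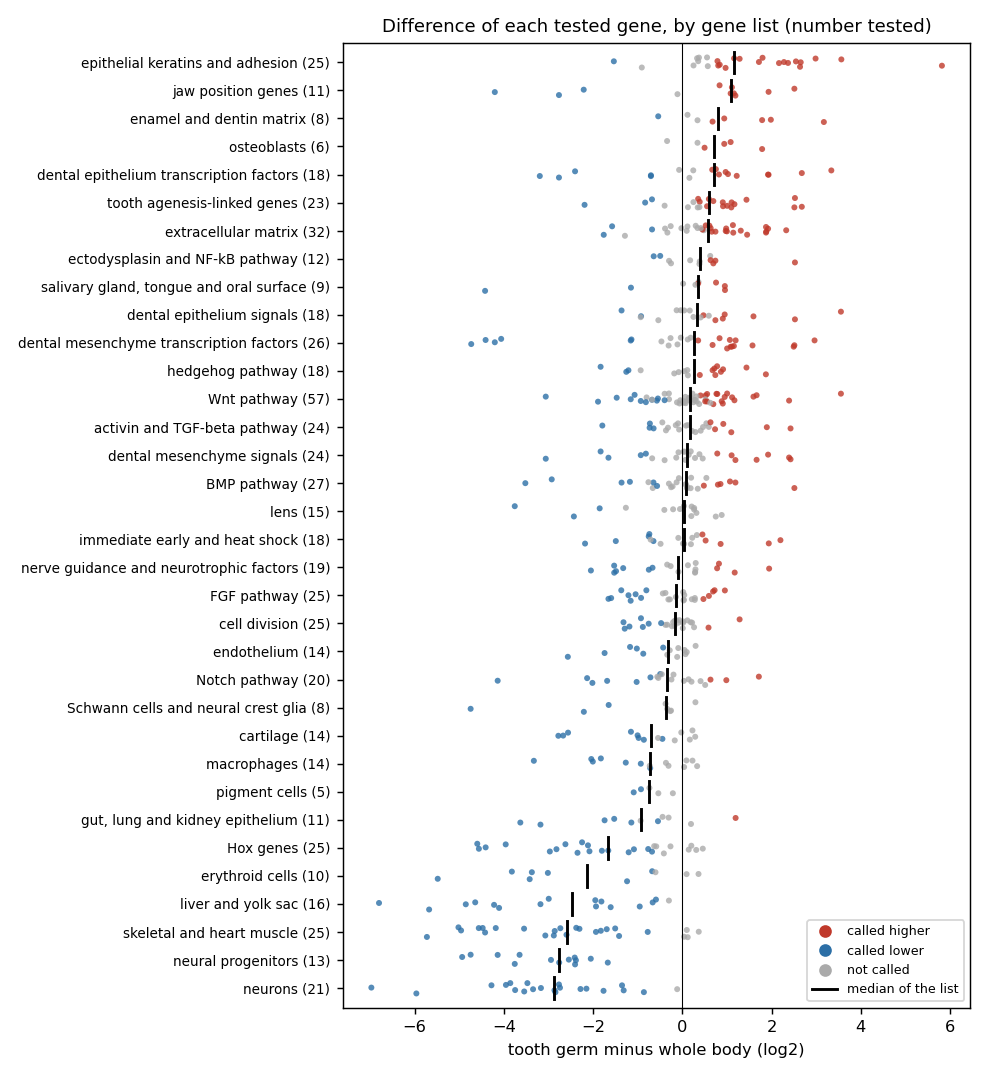
Difference tooth germ minus whole body (log2) for each tested gene of 34 lists, with the number tested in brackets and the list median as a black bar; lists are ordered by median, from -2.87 for neurons to 1.16 for epithelial keratins and adhesion. Dental and epithelial lists hold genes called in both directions, while the lists of neurons, neural progenitors, muscle, liver and erythroid cells hold none called higher.

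Matrix genes were more often higher than lower. Of 32 tested extracellular matrix genes of 35, 18 were higher, 3 were lower and 11 were not called, with a median of 0.56. The collagen VI genes Col6a3 and Col6a2 were higher by 2.33 ± 0.44 and 1.88 ± 0.16, the latter with 11.58, 11.83 and 11.70 in tooth germ against 9.89, 10.04 and 9.55. Postn, the periostin gene of bone and tooth membranes, was higher by 1.87 and the fibrillin gene Fbn2 by 1.87, a call that was lost against the lens-series whole body as given above. The fibrillar collagen genes Col1a1 and Col3a1 differed by 0.34 ± 0.27 and 0.10 ± 0.25 and were not called, and Lox, the collagen cross-linking enzyme, was lower by -1.76. Leaving out 1 array at a time gave 12 to 18 higher members.

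Genes of enamel and dentin, tissues that form days later, were in part already detected. Ambn, the ameloblastin gene of enamel matrix, measured 6.21, 6.98 and 7.17 in tooth germ and 3.56, 3.81 and 3.49 in whole body, all of the latter below the background guide, a fitted difference of 3.17 ± 0.21, or at least 4.23-fold. Tuft1, which encodes tuftelin, measured 8.95, 9.05 and 8.83 against 6.99, 7.11 and 6.80, a difference of 1.98 ± 0.19. Phex, an endopeptidase of mineralizing tissue, was higher by 1.79 ± 0.16. Amelx, the amelogenin gene, did not differ detectably (5.29 ± 0.02 against 5.18 ± 0.14, SD, n = 3 each), and Dspp and Enam did not pass the filter, with tooth germ means of 4.49 and 3.83. Of 23 listed members 19 had a probe set and 8 were tested, of which 5 were higher and 1 was lower. A gene low in whole body could pass the filter through the tooth germ arrays alone, so this count is not a result about the list. The osteoblast genes Alpl and Sp7 were higher by 0.94 and 0.50, and under the 3′ minus 5′ covariate Sp7 differed by 0.45 and was not called (adjusted p = 0.106).

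Genes in which human variants are linked to missing teeth were more often higher than lower. Of 23 tested members of 28, 15 were higher, 3 were lower and 5 were not called, with a median of 0.59 against -0.04 for all genes. Msx1, Trp63 and Edaradd had the largest positive differences, and Axin2 was among the lower. The list shares members with the dental lists above and is not a separate line of evidence.

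Most tested genes listed for neurons, muscle and liver were lower in tooth germ. Of 21 tested neuronal genes 20 were lower, and all 13 tested neural progenitor genes were, with medians of -2.87 and -2.76. Neurod1 was lower by -4.28 and Dcx by -3.86. Of 25 tested genes of skeletal and heart muscle 21 were lower (median -2.60), with Myf5 at -4.42 and Tnnt2 at -4.48, and 10 of the 25 had a tooth germ mean below the background guide. Of 16 tested liver and yolk sac genes 15 were lower (median -2.47), Fgg by -4.11. Of 14 tested cartilage genes 8 were lower and none was higher (median -0.70), with Col9a1 at -2.67 and Cnmd at -2.78.

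Most erythroid genes were lower as well, but not all. Of 10 tested, 7 were lower and 3 were not called (median -2.13). Over all genes 25.3% were lower and 16.6% higher, the background for the counts of this paragraph. Hbb-y, an embryonic beta globin gene, measured 13.92, 13.92 and 13.75 in tooth germ and 13.51, 13.55 and 14.24 in whole body, levels that overlapped (0.09 ± 0.18). The earlier globin Hbb-bh1 was lower by -3.82 and the erythroid factor Klf1 by -3.01. Of 14 tested endothelial genes 6 were lower and 8 were not called (median -0.31); Tek was lower by -2.57 and Kdr differed by -0.28 ± 0.15, and by -0.43 without tooth germ replicate 1 (adjusted p = 0.0311). Of 14 tested macrophage genes 7 were lower (median -0.73), Csf1r by -1.83. Nerve guidance and neurotrophic genes, which bear on the late arrival of nerves at the tooth, were mixed, with 4 of 19 tested members higher and 7 lower (median -0.09). The receptor gene Robo2 measured 5.91, 6.57 and 6.46 in tooth germ against 4.20, 4.22 and 4.68 and was higher by 1.94, the SLIT ligand gene Slit2 was lower by -1.53 and Sema3c by -2.05, and Sema3a, which repels dental nerves, differed by 0.28 ± 0.20. Among 8 tested genes of Schwann cells and crest glia 3 were lower, Ednrb by -1.65, while Sox10 overlapped between groups (0.29 ± 0.23). Of 11 tested genes of gut, lung and kidney epithelium 6 were lower and 1 was higher, the higher one being Six2. Of 9 tested genes of salivary gland, tongue and oral surface 4 were higher and 2 lower (median 0.35). The higher ones were Krt1 (0.95), Krt10 (0.95), Lor (0.75) and Pax9 (0.35), and the lower ones Myf5 (-4.42) and Sox9 (-1.15).

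Of 25 tested cell division genes 2 were higher, 7 were lower and 16 were not called, with a median of -0.17, against 16.6% higher and 25.3% lower over all genes. Ccnd2 was higher by 1.28 at its main probe set, but its 7 probe sets gave differences from -2.0 to 1.28 and their mean was -0.11. Ccnd1 was lower by -1.32 and Pcna by -1.29, and Mki67 differed by -0.21 ± 0.27. Immediate early and heat shock genes, which can respond to dissection, went both ways with 5 higher and 5 lower of 18. Egr2 measured 7.45, 8.24 and 8.25 in tooth germ against 6.18, 6.04 and 5.91 (1.94 ± 0.17) and Hspa1a was higher by 2.20, while Jun and Egr1 were lower by -2.18 and -1.49.

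The tooth germ arrays also differed from each other in a few genes, which were picked out after their values were seen. Of 13320 genes, 5, 6 and 8 lay at least 2 log2 units above the mean of the other 2 tooth germ arrays on replicates 1, 2 and 3, and 0 did so on any whole body array. Xist, the RNA of the inactive X chromosome, measured 12.89, 13.07 and 6.20 in tooth germ and 13.23, 13.21 and 13.11 in whole body. The Y-linked genes Eif2s3y and Kdm5d measured 3.14, 3.51 and 8.57 and 2.83, 2.91 and 7.08 in tooth germ, with whole body means of 3.17 and 2.89. The third tooth germ array thus carried low Xist and Y-linked signal, unlike the other 5 arrays.

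The same array carried crystallin signal. Cryba1 measured 5.07, 4.63 and 8.88 in tooth germ and 7.54, 7.48 and 7.37 in whole body, so that the third array was above the whole body and the other 2 were below it. Crybb3 measured 6.07, 5.67 and 8.15. Of 14 tested crystallin genes, 9 were at least 1 and 5 at least 2 log2 units higher on the third array than the mean of the other 2. Cryaa, the alpha A crystallin gene, was not among them, with 4.94, 5.07 and 4.42, nor was Cryab, which was lower than whole body by -2.43 ± 0.23. Over the 15 tested genes of the lens list the mean level was 5.31, 5.38 and 6.34 on the tooth germ arrays and 6.10 to 6.19 on the whole body arrays. Without this array Cryba1 was lower by -2.61 (adjusted p = 0.00245), and the whole comparison gave 1910 higher and 3024 lower genes. The part of this signal in other results was not tested.

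The second tooth germ array was the highest for some neural genes. Fabp7 measured 5.31, 8.99 and 7.36, Neurog2 4.72, 7.24 and 3.92, and Pax6 3.86, 6.22 and 4.75, against whole body means of 11.96, 9.04 and 8.70. Hoxc8, a trunk Hox gene, measured 3.62, 6.42 and 3.88 against a mean of 9.24. The mean level of the neural progenitor list was 5.06, 6.03 and 5.32 on the tooth germ arrays and 8.48 to 8.67 on the whole body arrays, so all 3 stayed well below whole body. The first tooth germ array was the highest for Afp, the alpha-fetoprotein gene of liver and yolk sac, with 9.45, 7.05 and 7.52 against 12.64, 12.61 and 13.33. The part of such signals in the differences reported above was not tested.

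The differences of the tooth germ were also set against those of the lens at E12.5 from its own whole body, in the same limma model. Of all genes, 39.6% differed in this test, 20.4% with the tooth germ difference the higher, and the 3′ minus 5′ values given above also separate these arrays. Lhx8 (6.20), Krt14 (5.43), Trp63 (5.16), Msx1 (4.11) and Inhba (2.80) were among the genes whose tooth germ difference was the higher. For Edaradd the difference of differences was 0.10 (adjusted p = 0.8567), since it was higher than body in lens as well, and for Hand2 it was 0.11 (adjusted p = 0.8158), since it was lower than body in both organs.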

How the data were processed

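Gene expression was measured on 19 Affymetrix arrays; the 6 of the tooth series were compared. The authors deposited linear intensity values per probe set, made with RMA in affy 0.7 per the submitters' processing notes; the build and other steps are not given in the sources used here. Values were taken to log2. The platform annotation gave 1 gene for 34945 of 45101 probe sets, several for 932 and none for 9160, with 64 controls; 34741 matched RefSeq GRCm38.p6 by gene identifier. Per gene the probe set with the highest mean over 19 arrays was kept, if above the median of all values (44.1) on at least 3 arrays. limma 3.58.1 (R 4.3.3) fitted 1 mean per group over all 19 arrays; tests are two-sided with Benjamini-Hochberg adjustment over 13320 genes, called at an adjusted p under 0.05. On simulated data, 77 of 100 genes changed by 1 log2 unit and 100 of 100 changed by 2 were recovered, and 7 of 13120 unchanged genes were called. That set changed far fewer genes than the 41.9% called here, so its false calls do not carry over to these data. Alternatives covered scaling, filter, probe set choice, samples, control and RNA quality. Levels are not compared between probe sets. The number of arrays limits the precision.

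Named genes are the 15 largest non-overlapping differences in each direction and, per list, up to 6 called members, those against the majority and 3 not called, plus a set of tooth genes; some of them only are printed. The members and lists were chosen with earlier results of these data known. Some listed genes are not analysed here.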

Additional observations from a re-analysis of the deposited data

Results flagged for a closer look

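For 13 genes the difference between tooth germ and its whole body itself differed from the difference between lens at E12.5 and its whole body, by the same limma model. The comparisons share no array, but the lens-series arrays had far lower 3′ minus 5′ values, and 39.6% of all genes differed in this test. Stage differed too, with whole bodies labelled E10.5 to E12.5 for lens and E11.5 to E13.5 for tooth germ. Tooth germ minus lens, the difference of differences was 6.20 for Lhx8, 5.43 for Krt14, 5.16 for Trp63, 4.11 for Msx1 and 4.03 for Bmp4. It was 3.47 for Lhx6, 3.11 for Barx1, 2.94 for Dlx5, 2.80 for Inhba, 2.71 for Lef1 and 0.91 for Wnt10a. The lens means of Bmp4 and Barx1 were 5.70 and 5.55, against 8.54 and 7.51 in the lens-series body. The difference of differences was negative for Pax6 (-7.68), whose lens mean was 11.29, and for Cdh1 (-1.18), whose tooth germ difference was 1.80.

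Of 9160 probe sets that the annotation pairs with no gene, 3038 passed the filter, of which 875 were higher and 350 lower in tooth germ. They were flagged because they lie outside the comparison by gene.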

How the results depend on the processing

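Counts within 1.5 times of those reported were found under most alternatives. The exceptions were 792 genes at least 2-fold higher with arrays centred on the median; 337 at least 2-fold higher and 860 at least 2-fold lower with all probe sets of a gene averaged; 1213 higher with the 3′ minus 5′ covariate; and, with the lens-series body as control, 3715 higher, 1588 at least 2-fold higher and 2660 at least 2-fold lower, with 896 calls in the opposite direction. Leaving out each array in turn gave 1826 to 2012 higher, 2760 to 3350 lower, 472 to 596 at least 2-fold higher and 1285 to 1549 at least 2-fold lower. Replicate numbers are shared between the groups, but same-numbered arrays did not deviate together (r = -0.08, 0.03 and -0.05); with the replicate block 2149 genes were higher and 3269 lower, 524 and 1383 of them at least 2-fold. Among named genes the block ended the call of Pax9 (0.35, adjusted p = 0.0595) and gave one to Eda (0.38, adjusted p = 0.0372), Eif2s3y (1.90, adjusted p = 0.0368) and Xist (-2.47, adjusted p = 0.0232).

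Named genes that changed direction with the lens-series body were Axin2 (0.080), Barx1 (-0.60), Bmp2 (0.29), Bmp4 (-0.14), Ccnd2 (-0.18), Col3a1 (-1.41, and -0.66 with both bodies), Eif2s3y (-2.21), Fgf7 (0.18), Hbb-y (-0.45), Kdm5d (-2.63), Pax9 (-0.044), Pitx1 (-0.99), Prrx1 (0.91), Tnc (-0.71) and Xist (4.70). With probe sets averaged, Ccnd2 (-0.11) and Fgf9 (-0.68) did. Of the genes reversed with the lens-series body, Col3a1, Eif2s3y, Hbb-y, Kdm5d, Pitx1, Prrx1, Tnc and Xist were called in that fit, and the others were not. The cause was not tested. Under the other alternatives run no named gene was reversed; with the 3′ minus 5′ covariate Fgfr2, Sp7 and Wnt4 lost their call and Cryba1 and Grhl2 gained one. Probe sets limit the comparison too: of 4566 other probe sets of called genes, 328 were called in the opposite direction.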
